A study of Mus musculus with 2 samples.

Results

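Hypoxia response and glycolysis genes were measured in macrophages derived in culture from mouse bone marrow. The set of 40 genes, out of 22613 with a matched name and a probe on the array, was chosen by known role and on the log2 difference between these same 2 arrays. It falls into 3 roles: 8 subunits and regulators of hypoxia-inducible factor (HIF), 16 other HIF targets, and 16 genes of glucose transport and glycolysis. The 2 groups were c-Maf-/- macrophages and c-Maf+/- macrophages, so that the control cells also lacked 1 copy of c-Maf. M-CSF, a macrophage growth factor, was supplied as CMG14-12 medium during 5 days of culture. Lipopolysaccharide (LPS), which activates cells through a Toll-like receptor, was then given at 100 ng/ml for 5 h to both genotypes. No cells without LPS and no measured oxygen level enter the comparison, and mouse strain, age, the number of animals behind each culture and the part of Maf that was deleted are not given in the sources used here. Each genotype had 1 array, so the genotypes could not be tested, and all values describe these 2 arrays.

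HIF is a pair of transcription factor subunits: an alpha subunit such as HIF-1 alpha, made from Hif1a, and the partner ARNT. With oxygen, prolyl hydroxylases of the EGLN family mark the alpha subunit for removal by the VHL ubiquitin ligase, and without oxygen it accumulates and switches on genes of angiogenesis, mitophagy and anaerobic glucose use. In macrophages LPS also raises Hif1a through NF-kB, and activated cells rely on glycolysis even when oxygen is present. The protein level that oxygen controls is not read by an array of transcripts.

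The core letters that HIF binds are shown first for 5 of the members with large differences, which are not the 5 largest. Vegfa, at 2.49, is not shown, and its first listed window holds no match. Ldha is added, whose window holds as many matches as any of the others while its difference was small. Each line is the 250 bases before the RefSeq start site, on the strand of the gene and from 5′ to 3′, with matches to ACGTG or GCGTG on either strand in capitals (mouse build GRCm38.p6).
Egln3 (chr12:54203875-54204124, minus strand): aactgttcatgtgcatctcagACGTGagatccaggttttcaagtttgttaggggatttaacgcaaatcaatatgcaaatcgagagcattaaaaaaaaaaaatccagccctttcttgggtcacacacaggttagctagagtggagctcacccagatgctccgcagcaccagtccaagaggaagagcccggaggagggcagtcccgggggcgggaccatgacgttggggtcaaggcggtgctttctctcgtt
Mgarp (chr3:51396548-51396797, minus strand): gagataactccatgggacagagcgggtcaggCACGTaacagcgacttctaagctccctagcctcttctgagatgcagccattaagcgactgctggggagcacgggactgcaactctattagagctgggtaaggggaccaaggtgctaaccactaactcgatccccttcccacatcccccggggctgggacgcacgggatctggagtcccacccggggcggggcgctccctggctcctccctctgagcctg
Ankrd37 (chr8:45999851-46000100, minus strand): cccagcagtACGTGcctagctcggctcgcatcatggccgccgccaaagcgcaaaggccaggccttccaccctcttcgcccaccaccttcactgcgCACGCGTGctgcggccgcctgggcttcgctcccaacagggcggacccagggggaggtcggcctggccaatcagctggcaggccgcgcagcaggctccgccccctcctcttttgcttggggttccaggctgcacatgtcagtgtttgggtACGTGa
Ddit4 (chr10:59951771-59952020, minus strand): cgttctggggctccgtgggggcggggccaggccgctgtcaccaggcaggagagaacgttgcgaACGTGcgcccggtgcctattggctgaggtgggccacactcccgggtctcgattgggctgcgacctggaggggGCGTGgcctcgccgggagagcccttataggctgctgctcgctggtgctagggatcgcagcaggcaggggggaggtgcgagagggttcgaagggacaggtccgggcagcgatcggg
Bnip3 (chr7:138909507-138909756, minus strand): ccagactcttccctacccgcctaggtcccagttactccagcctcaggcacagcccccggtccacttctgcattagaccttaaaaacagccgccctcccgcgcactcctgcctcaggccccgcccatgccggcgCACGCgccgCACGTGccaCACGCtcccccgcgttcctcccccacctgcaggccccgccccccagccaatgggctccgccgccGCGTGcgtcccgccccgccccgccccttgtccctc
Ldha (chr7:46845554-46845803, plus strand): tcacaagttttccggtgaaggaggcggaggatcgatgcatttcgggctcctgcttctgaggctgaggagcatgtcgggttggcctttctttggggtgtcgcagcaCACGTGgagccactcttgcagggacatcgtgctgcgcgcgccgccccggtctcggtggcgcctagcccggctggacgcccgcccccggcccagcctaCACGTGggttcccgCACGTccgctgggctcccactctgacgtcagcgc

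The genotype labels were checked on Maf itself. Its brighter probe read 12.6 in c-Maf-/- cells, not well above background, against 15101 in c-Maf+/- cells, at least 636-fold lower. Its other probe read 5.96 in c-Maf-/- cells, also not well above background, against 541 in c-Maf+/- cells, at least 22.8-fold lower. These bounds replace the dim signal by the lowest signal detected on its array. Whether the probes lie in the deleted part of Maf is not given in the sources used here. Of the macrophage markers, 12 of 12 were measured. Their median was -0.09 on the log2 scale, 5 lay above 0 and 7 below, and they ranged between -1.91 and 0.58. Chosen after their values were seen, Csf1r, the M-CSF receptor, was at -0.03, Cd68 at -0.40 and Adgre1 at -0.40. Values are processed signals in intensity units, and each log2 difference is c-Maf-/- minus c-Maf+/- after dividing each array by its own value at the 75th percentile (296 for c-Maf-/- and 291 for c-Maf+/-). Between 44.9% and 45.3% of spots were well above background, and no spot was saturated. Probes differ in how well they bind, so signals are compared between arrays and not between genes. Among 3452 genes with at least 2 probes the SD between probes had a median of 0.09 in log2 units.

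Of the 40 members, 39 had a probe well above background on both arrays, 22 of them through 1 probe. Mxi1, a repressor that competes with MYC, was the exception, at 8.42 in c-Maf-/- and 5.01 in c-Maf+/-, not well above background on either array. The dimmest members inside that limit were Adm, with 59.6 in c-Maf-/- and 44.2 in c-Maf+/-, and Egln1, with 100.1 in c-Maf-/- and 49.2 in c-Maf+/-. Since the members were chosen with these differences known, their differences are a description and not a test. Of the 39, 32 lay above 0 and 7 below, 8 reached 2-fold on the higher side in c-Maf-/- and 0 on the lower side. Across all 12406 measured genes, 46.3% lay above 0, 1.43% reached 2-fold upward (177 genes) and 1.73% downward (215 genes). With spike-in scaling those 2 counts were 262 and 141.

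**Figure D1:**
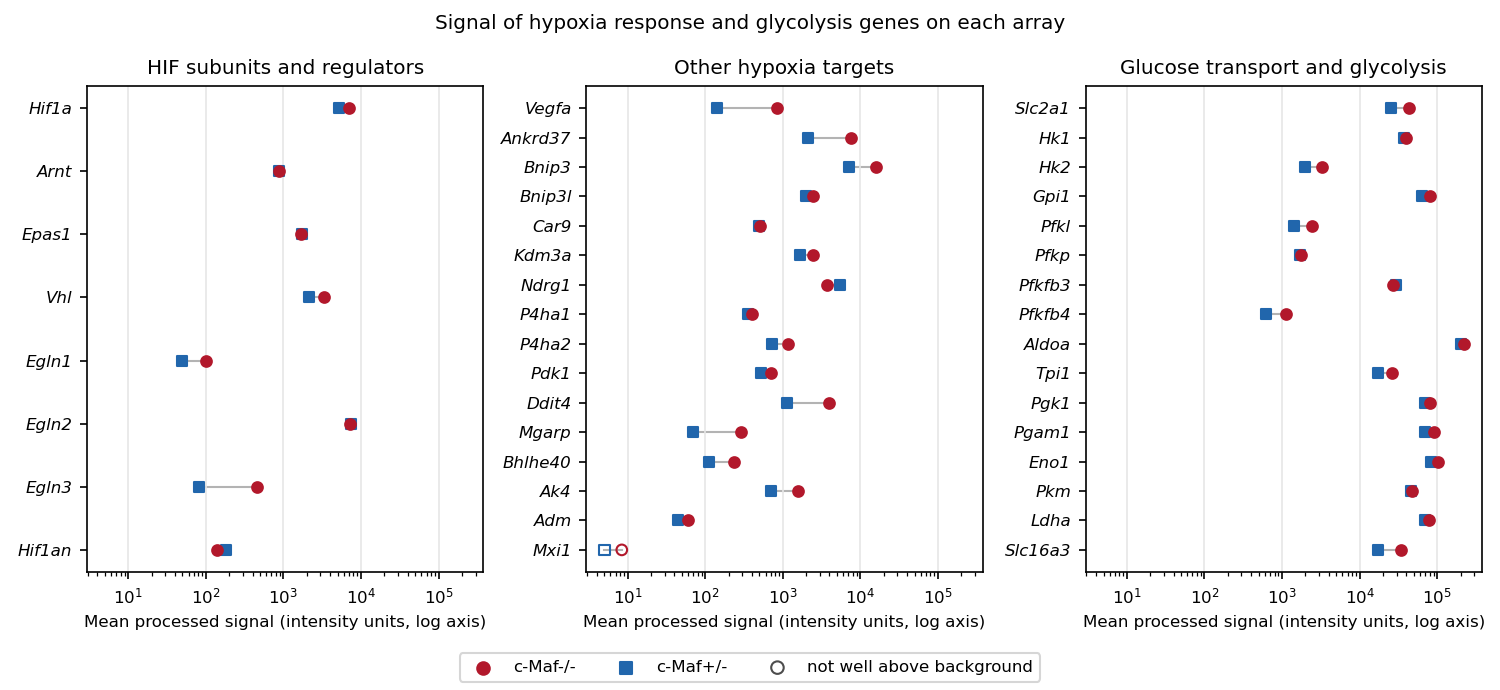
Mean processed signal of each member on the c-Maf-/- array (circles) and the c-Maf+/- array (squares), on a log axis, with 1 panel for each role; open symbols mark Mxi1, which was not well above background. Egln3, Vegfa, Mgarp, Ankrd37 and Ddit4 have the widest gaps between arrays, and the glycolytic genes have narrower gaps, the widest of them at Slc16a3.

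The HIF subunits themselves lay within 2-fold at the probes measured on both arrays. Hif1a, the alpha subunit that LPS induces, read 6978 in c-Maf-/- and 5194 in c-Maf+/-, a log2 difference of 0.40 from 1 probe. A second Hif1a probe was well above background in c-Maf-/- only (32.3, against 16.5 in c-Maf+/-). Set against the lowest detected signal of the c-Maf+/- array, it was at least 1.42-fold higher, or 0.51 in log2 units. The probe's own log2 difference was 0.95, with a standard error of 0.60 by the scanner software's error model. Its c-Maf+/- signal was not well above background, so this size is uncertain. Epas1, which encodes the HIF-2 alpha subunit, was at -0.11 over 2 probes, the brighter with 3188 in c-Maf-/- and 3315 in c-Maf+/-. Another Epas1 probe was well above background in c-Maf-/- only, at 31.1 against 22.7 in c-Maf+/-. Its log2 difference of 0.43 lay within its standard error of 0.45 by the same error model. Arnt, the partner subunit, was at -0.05, and its brighter probe had 1002 in c-Maf-/- and 975 in c-Maf+/-. Both values lay near 0 and changed sign with spike-in scaling, to 0.03 for Epas1 and 0.09 for Arnt.

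Among the enzymes that switch HIF off, the 3 prolyl hydroxylase genes went apart. Egln3 read 611 in c-Maf-/- and 112 in c-Maf+/- at one probe, and 312 in c-Maf-/- and 51.8 in c-Maf+/- at the other. Both probes were thus several times brighter in c-Maf-/-, with log2 differences of 2.42 and 2.56, and Egln3 ranked 5 from the highest of 12406 genes. Egln1, the main oxygen sensor in most cells, had 100.1 in c-Maf-/- and 49.2 in c-Maf+/- at a single dim probe. Its log2 difference of 0.999 was just short of 2-fold and was 0.45 with normexp background correction. The file's annotation places only 13 bases of that probe in the genome (chromosome 8, 127432487 to 127432499, mm9), so its target is less certain than the others. Egln2, the remaining enzyme, was bright and near 0, with 12667 in c-Maf-/- and 12728 in c-Maf+/- at its brighter probe and a mean of -0.06 that turned to 0.08 on the spike-in scale. The gap between Egln3 and Egln2 was 2.55 in log2 units.

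The remaining brakes on HIF went opposite ways. Vhl, the substrate-binding part of the ubiquitin ligase, had 3315 in c-Maf-/- and 2143 in c-Maf+/-, a difference of 0.60. Hif1an, an asparagine hydroxylase that blocks HIF from its co-activators, had 138 in c-Maf-/- and 180 in c-Maf+/-, a difference of -0.41. Over the 8 subunits and regulators the median was 0.18, with 4 above 0 and 4 below, and Egln3 was the member past 2-fold. That median was -0.05 over the 7 with a signal of at least 100 on both arrays.

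The other HIF targets held most of the large differences among the members. Of 15 measured, 7 were at least 2-fold higher, beside 1.43% of all measured genes. The median was 0.68, against -0.02 for all measured genes. Because the members were chosen with these differences known, these contrasts are a description. Vegfa, the angiogenic growth factor, had 1237 in c-Maf-/- and 209 in c-Maf+/- over 2 spots of one probe, and 433 in c-Maf-/- and 78.3 in c-Maf+/- at its other probe. The probes lie apart on chromosome 17 (46154387 to 46154446 and 46162376 to 46162435, mm9) and gave 2.54 and 2.44. Mgarp, a mitochondrial protein of transport and morphology, had 294 in c-Maf-/- and 68.8 in c-Maf+/-, a difference of 2.07 from 1 probe. Vegfa and Mgarp were thus dim in c-Maf+/- and moderately bright in c-Maf-/-.

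The other targets past 2-fold were spread over dim and bright probes. Ankrd37, an ankyrin repeat protein, had 7638 in c-Maf-/- and 2102 in c-Maf+/-, a difference of 1.84. Ddit4, which restrains the growth kinase complex mTORC1, had 3973 in c-Maf-/- and 1141 in c-Maf+/-, a difference of 1.77. Bnip3, a receptor that directs mitochondria to autophagy, had 25922 in c-Maf-/- and 12607 in c-Maf+/- at its brightest probe. Its 3 probes gave 1.01, 1.22 and 1.23, so all were past 2-fold. Ak4, a mitochondrial adenylate kinase, was at 1.04 over 2 probes, the brighter with 3043 in c-Maf-/- and 1345 in c-Maf+/-. Bhlhe40, a repressor of the clock and of cytokine genes, had 237 in c-Maf-/- and 112 in c-Maf+/-, a difference of 1.06. Ak4 and Bhlhe40 sat close to the threshold and were at 0.78 and 0.77 with normexp.

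**Figure D2:**
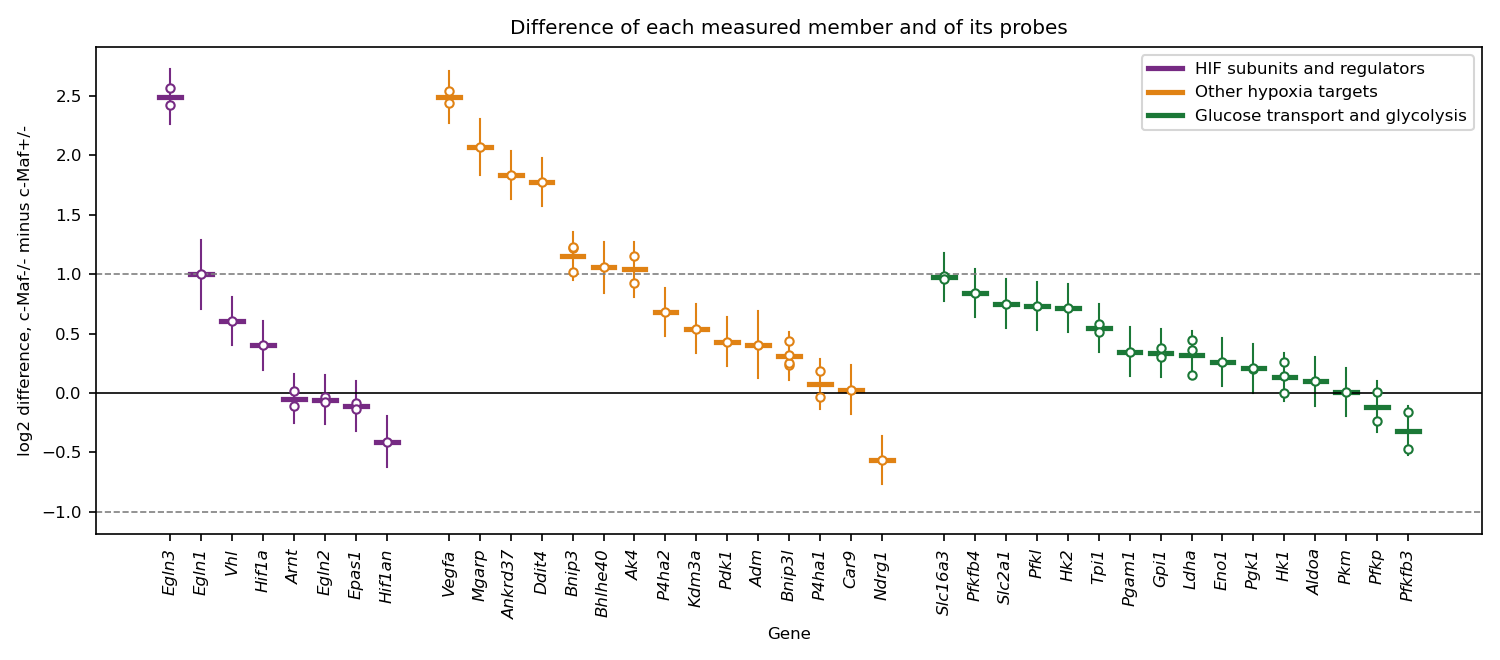
Log2 difference (c-Maf-/- minus c-Maf+/-) of each measured member, sorted within its role; bars mark the gene mean, open circles its probes, vertical lines plus and minus 1 standard error from the scanner software's error model, and dashed lines 2-fold. Egln3 and Vegfa lie near 2.49, and the glycolytic genes lie between -0.32 and 0.97.

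The rest of the targets lay within 2-fold and were not uniform. P4ha2, a subunit of the collagen prolyl hydroxylase, was at 0.68, with 1173 in c-Maf-/- and 720 in c-Maf+/-. Its paralog P4ha1 was at 0.07, its brighter probe having 689 in c-Maf-/- and 595 in c-Maf+/-. Kdm3a, a histone demethylase, was at 0.54, and Pdk1, which closes pyruvate dehydrogenase, at 0.43. Bnip3l, the paralog of Bnip3, was at 0.31, and its 4 probes ranged between 0.23 and 0.44. The vasodilator peptide gene Adm was at 0.41. Car9, a carbonic anhydrase that is among the most HIF-dependent genes in tumours, was at 0.03, with 512 in c-Maf-/- and 493 in c-Maf+/-. Ndrg1, a stress-responsive gene, went the other way, with 3725 in c-Maf-/- and 5418 in c-Maf+/-, a difference of -0.57. Car9 was thus near level between the arrays, and Ndrg1 was the 1 measured target below 0.

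None of the 16 glycolytic genes reached 2-fold in either direction, which is close to the shares of all measured genes (1.43% upward and 1.73% downward). The class median was 0.33, with 14 above 0 and 2 below, and Pkm and Pfkp, both near 0, changed side with the scaling. The 3 highest were the lactate exporter gene Slc16a3, the regulatory enzyme gene Pfkfb4 and the glucose importer gene Slc2a1. Slc16a3 had 35456 in c-Maf-/- and 17573 in c-Maf+/- at its brighter probe, and 33258 in c-Maf-/- and 16764 in c-Maf+/- at the other. Its mean of 0.97 (1.97-fold) was just under 2-fold and was 1.11 on the spike-in scale. Slc2a1 had 43411 in c-Maf-/- and 25315 in c-Maf+/-, a difference of 0.75.

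Early, regulated steps split by isoform. Hk2, the inducible hexokinase, had 3306 in c-Maf-/- and 1976 in c-Maf+/-, a difference of 0.72, while the constitutive Hk1 was at 0.13, its brightest probe having 95874 in c-Maf-/- and 94022 in c-Maf+/-. Pfkl, the liver-type phosphofructokinase, had 2441 in c-Maf-/- and 1445 in c-Maf+/-, a difference of 0.73. The platelet-type Pfkp was at -0.12 over 2 probes, with 3393 in c-Maf-/- and 3319 in c-Maf+/- at the brighter, and turned to 0.02 on the spike-in scale. Among the bifunctional enzymes that set the level of the phosphofructokinase activator, Pfkfb4 was at 0.84, with 1119 in c-Maf-/- and 614 in c-Maf+/-. Pfkfb3, the isoform that LPS induces, was at -0.32, its brighter probe having 52239 in c-Maf-/- and 57481 in c-Maf+/-. In log2 units these pairs differed by 0.58 (Hk2 over Hk1), 0.85 (Pfkl over Pfkp) and 1.16 (Pfkfb4 over Pfkfb3).

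The remaining enzymes lay between 0.01 and 0.55. Tpi1, triosephosphate isomerase, was at 0.55, with 41625 in c-Maf-/- and 27406 in c-Maf+/- at its brighter probe and 11068 in c-Maf-/- and 7604 in c-Maf+/- at the other. Pgam1, phosphoglycerate mutase, was at 0.35, Gpi1, which turns glucose phosphate into fructose phosphate, at 0.33, and Eno1, enolase, at 0.26. Pgk1, phosphoglycerate kinase, was at 0.21. Ldha, which makes lactate, was at 0.32, but its 3 probes gave 0.15, 0.36 and 0.45, and the smallest came from the brightest, with 199473 in c-Maf-/- and 176897 in c-Maf+/-. Aldoa, aldolase, was at 0.10 and Pkm, pyruvate kinase, at 0.01, with 46724 in c-Maf-/- and 45725 in c-Maf+/-. The probes of Gpi1, Pgk1 and Slc16a3 overlap each other, so their agreement is close to a repeat of 1 probe. Several glycolytic genes have processed pseudogenes, and binding of these probes to such copies was not tested.

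Bright genes as a whole are set beside the glycolytic values as a description. The glycolytic genes were chosen with their differences known, so a gap from other bright genes is not a test. Of 1359 genes with a signal of at least 10000 on both arrays, 30.1% lay above 0, 0.147% reached 2-fold upward, and the median was -0.07, a sign that turns with spike-in scaling. Of the glycolytic genes, 12 were that bright, 11 of them above 0, with a median of 0.29. The other 4 (Hk2, Pfkl, Pfkp and Pfkfb4) had a median of 0.72. By the error model of the scanner software, 1 standard error of a log2 difference was 0.20 to 0.29 over the members at probes measured on both arrays. Of the glycolytic genes, 4 of 16 lay within 1 standard error of 0, and the share of all measured genes that did is not given here. That error comes from within each array and holds no spread between cultures, so it cannot tell whether the genotypes differ. The 8 spike-in transcripts lay between -0.18 and -0.10 over signals from 189 to 233789 in c-Maf-/-, so scaling on them would raise each difference by 0.14 in log2 units.

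Genes of the same pathways outside the 40, listed by role with earlier results of these data known, were mixed. Since the 40 were chosen on these differences, the contrast between the lists and the members is not a test. Of 34 measured HIF targets reported in other cells, 17 lay above 0 and 17 below, with a median of 0.06. Of the 34, 5 reached 2-fold upward and 0 downward, beside 1.43% upward and 1.73% downward of all measured genes. The 5 were the chemokine receptor gene Cxcr4 (79.1 in c-Maf-/- and 32.2 in c-Maf+/-, difference 1.27), the collagen cross-linker gene Lox (1.26 over 2 probes), the glycogen synthase gene Gys1 (1.21 over 2 probes), Narf (1.13) and the lipid droplet gene Hilpda (4475 in c-Maf-/- and 2168 in c-Maf+/-, difference 1.02). Of 18 measured genes of the HIF machinery none was past 2-fold and the median was -0.04. The farthest from 0 was Cited2, which competes with HIF for co-activators, with 672 in c-Maf-/- and 1023 in c-Maf+/- (-0.62 over 2 probes), and next came Cited4 (0.53), Arntl (0.39) and Hsp90aa1 (0.27).

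Other enzymes of glucose use lay on both sides of 0. Of 26 measured genes of glycolysis and pyruvate entry, 12 lay above 0 and 14 below, with a median of -0.07 and none past 2-fold. Pdp1, a phosphatase that opens pyruvate dehydrogenase, was at -0.74 over 3 probes and the myeloid hexokinase gene Hk3 at -0.54, with 11481 in c-Maf-/- and 16347 in c-Maf+/-. Tigar, a phosphatase that slows glycolysis, was at 0.44 and Pdk2, a relative of Pdk1, at 0.38. Pentose phosphate genes had a median of 0.12 over 9, led by Rpia (0.52), Pgd (0.40) and H6pd (0.39), with Taldo1 at -0.28. Tricarboxylic acid cycle genes had a median of -0.04 over 20, and all lay between -0.30 (Suclg2) and 0.17 (Dld), with Idh3b at -0.17 and Sdha at -0.16. The 14 reference genes had a median of -0.02, with Ywhaz at -0.23, Hprt at -0.21, B2m at -0.18 and Rpl13a at 0.13. Spike-in scaling, which shifts every gene alike by 0.14, takes the medians of these lists that lie below 0 to above 0.

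**Figure D3:**
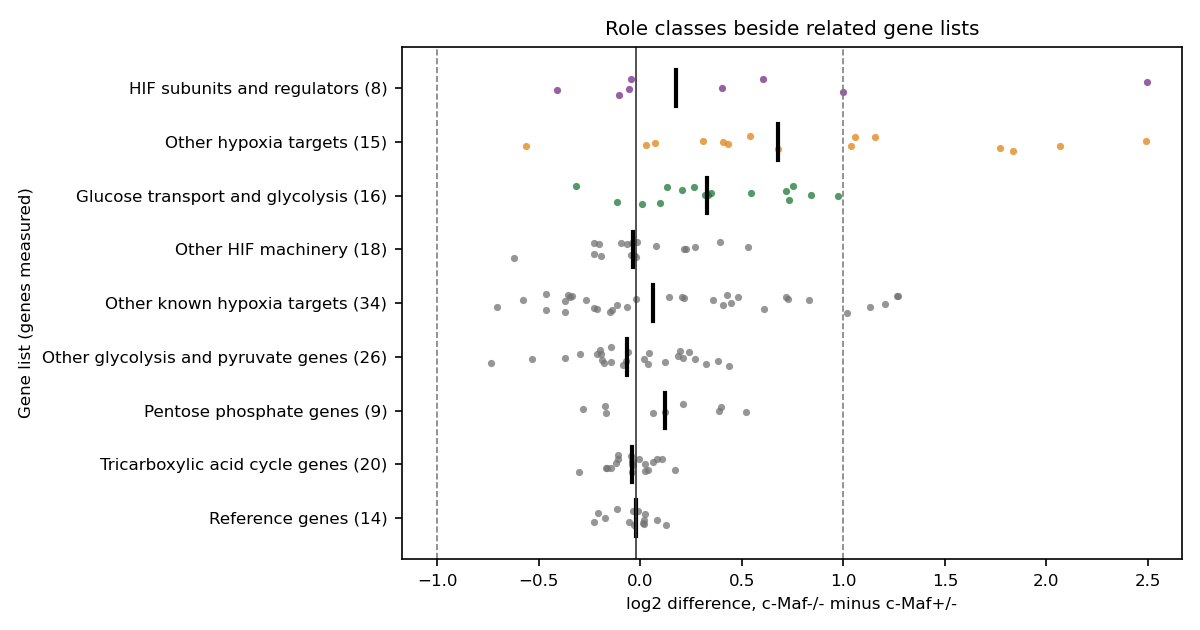
Log2 difference (c-Maf-/- minus c-Maf+/-) of the measured genes in each role class (coloured) and in related lists (grey), 1 point a gene, with the median of each list as a black bar, the median of all genes as a vertical line at -0.02 and dashed lines at 2-fold. The other hypoxia targets lie between -0.57 and 2.49, and the tricarboxylic acid cycle and reference genes stay within -0.30 to 0.17.

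Markers of other cell types also differed between the arrays, and their part in these values was not tested. Erythroid and megakaryocyte markers, of which 7 of 12 were measured, had a median of 0.72 (Gp9 0.91, Hba-a1 0.83, Ppbp 0.79, Slc4a1 0.72). Of these 7, 6 lay above 0 and 1 below. The 1 below was Pf4 (-0.07), the brightest of them, with 56215 in c-Maf-/- and 58067 in c-Maf+/-. Hba-a1 (55.4 in c-Maf-/- and 30.7 in c-Maf+/-) and Slc4a1 (56.0 in c-Maf-/- and 33.4 in c-Maf+/-) were dim. Hbb-b1, Alas2, Epor and Klf1 were among those not well above background. Neutrophil markers, with 11 of 13 measured, had a median of -0.63, with 2 above 0 (up to 0.46) and 9 below. Those past 2-fold were Ngp (-1.45), Ltf (-1.41), Prtn3 (-1.31), Mpo (-1.21) and S100a9 (-1.01). Dendritic cell markers, with 7 of 10 measured, had a median of -0.60, with 2 above 0 (up to 0.47) and 5 below, of which Fscn1 (-1.50), Itgax (-1.09), Batf3 (-0.89) and Zbtb46 (-0.60) were farthest from 0. The median for fibroblasts and endothelium was -0.40 with 5 of 10 measured (Dcn -0.95, Col1a1 -0.88, Col1a2 -0.32, and Kdr -0.40 from 2 probes that disagreed by an SD of 0.77) and lymphocyte markers -0.07 over 5 of 8 (Lck -0.94, Cd79b 0.52, Cd79a -0.33, Cd3e 0.19). Of the macrophage markers, Mertk (-1.91), Aif1 (-0.61), Lyz2 (0.58) and Fcgr1 (-0.58) were farthest from 0. Fewer cells of a type and less RNA per cell cannot be told apart in such bulk samples.

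The start-site windows shown above were then counted for all members with an entry in the RefSeq table. Each window runs from 250 bases before to 50 after a start site. Of the 40 members 36 had at least 1 window. ACGTG occurred on either strand in 24 of the 36 (66.7%), against 28.6% of 9866 genes measured on both arrays and 21.8% of 27025 genes in the table. GCGTG occurred in 22 of 36 (61.1%), against 53.1% of the measured genes and 35.2% of all. A palindromic CACGTG counts once on each strand, and a gene with several windows has more chances of a match. Windows of members also held more CG pairs (median 23.5) than those of measured genes (19) or of all genes (7), and both core variants contain CG.

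Of the 7 members at least 2-fold higher with a window, 7 had ACGTG in at least 1, as did 16 of the 28 within 2-fold (57.1%). The differences chose the members, so nothing is read from these counts. The Egln3 and Mgarp windows held 1 match each, starting at -229 and -219 bases from the start site, and their differences were 2.49 and 2.07. The first Ldha window held 5 matches to ACGTG, 4 of them from a pair of CACGTG palindromes, and Ldha was at 0.32. Of the 2 Vegfa windows, 1 had no match and the other had 1 of each variant. Among all measured genes with a window, 144 reached 2-fold upward and 172 downward. The 144 include the 7 members above, all with ACGTG, so their shares are not free of the choice of members. ACGTG was found for 37.5% of the higher and 16.3% of the lower, beside 28.6% of all measured. GCGTG was found for 48.6% of the higher and 34.9% of the lower, beside 53.1% of all measured. For either variant the shares were 62.5% of the higher and 44.8% of the lower, beside 64.8% of all measured, so the higher genes lay above all measured genes for ACGTG and below them for GCGTG and for both variants together. The half-site TGCTGAC, the letters Maf proteins prefer, occurred in 0 of 36 members and in 4.61% of measured genes. A match gives letters only, and its absence says nothing of sites outside these windows.

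**Figure D4:**
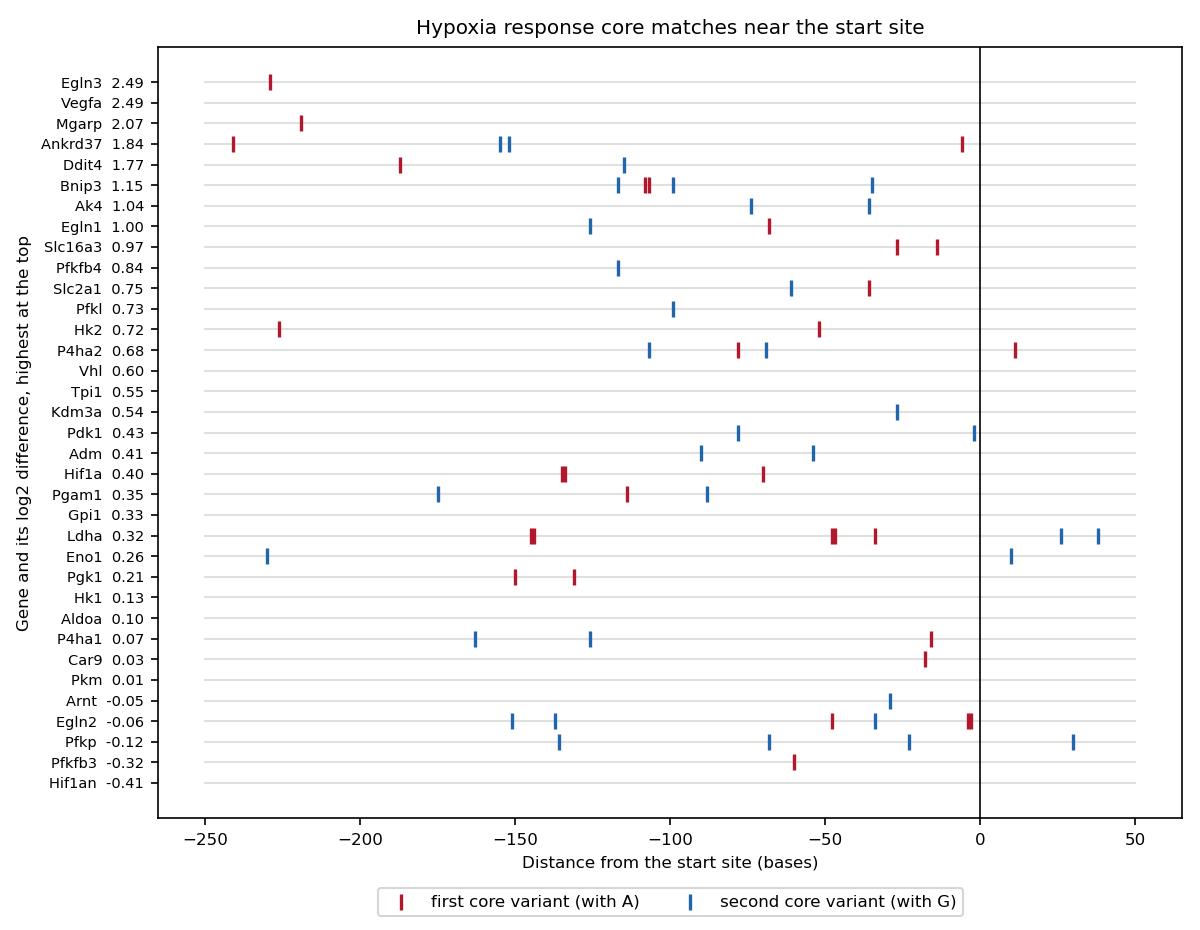
Position of ACGTG (red) and GCGTG (blue) matches on either strand, in bases from the start site, in the first listed window of each measured member, ordered by log2 difference (c-Maf-/- minus c-Maf+/-, beside each name) with the highest at the top. Ldha has 7 matches at a difference of 0.32, and Vegfa has none in the window drawn at a difference of 2.49.

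Of the 8 members past 2-fold, 6 stayed past it under each of the settings that measured them. Egln3 lay between 1.80 and 2.63 over 12 settings, Vegfa between 1.96 and 2.63, Mgarp between 1.33 and 2.20 over 10, Ankrd37 between 1.80 and 1.97 over 11, and Ddit4 between 1.73 and 1.91 over 11. Bnip3 stayed between 1.01 and 1.29. Bhlhe40 was past 2-fold in 9 of 11 settings and Ak4 in 10 of 12. Egln1 passed it in 2 of 10 and Slc16a3 in 3 of 12. None of the other 29 measured members passed it in any setting.

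**Figure D5:**
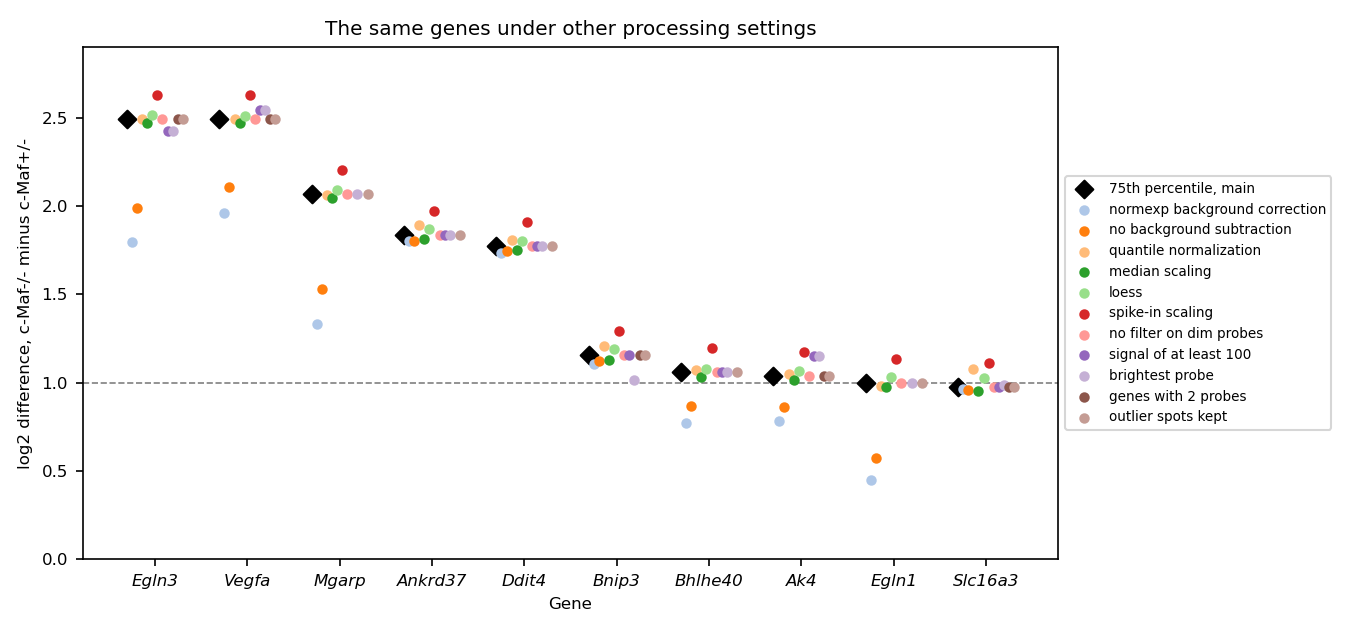
Log2 difference (c-Maf-/- minus c-Maf+/-) of the 10 members nearest to or past 2-fold under the main scaling (black diamonds) and the other settings (coloured points), with the dashed line at 2-fold. Normexp and unsubtracted signals give the lowest values for the dim genes Egln3, Vegfa, Mgarp and Egln1, and little change for the bright Ankrd37 and Ddit4.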

How the data were processed

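One RNA preparation of each genotype was labelled with Cy3 (50 ng of total RNA, per the labels' protocols) and hybridised to 1 one-colour array, and both arrays shared 1 slide, where position cannot be told apart from genotype. The deposited values are spot intensities from Agilent Feature Extraction 10.7.3.1, design 028005, background-subtracted and detrended within the array, per the file headers, and not scaled between arrays. The deposited flags for detection, saturation and outliers, the raw mean and background intensities and the software's signal error were also used.

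Here log2 signals were taken relative to each array's 75th percentile over 59305 non-control spots. Outlier spots were dropped (149 in c-Maf-/- and 136 in c-Maf+/-), spots of a probe averaged, and probes well above background on both arrays averaged to a gene. Names came from the files, updated through RefSeq matching 28026 probes on their accession, 3418 on the symbol, 272 on an earlier symbol and 96 on a further accession. The 23869 probes with no match are not counted. Probe positions are mm9, and start-site windows are RefSeq GRCm38.p6. Calls are at 2-fold, with no p-value. The calling step was tested on simulated data whose noise was set from the SD between probes. That run holds no spread between cultures or arrays, so it checks the code and not the calls. Members, lists and markers were chosen with earlier results of these data known. All 40 members may be named, and from each other list genes past 2-fold and the 4 farthest from 0. Cd68, Adgre1, Csf1r and Pf4 were added after their values were seen. Python 3.11.15 and limma 3.58.1 (normexp with offset 50, quantile, loess) were used. The number of arrays limits the precision of every value.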

Additional observations from a re-analysis of the deposited data

How the results depend on the processing

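Over 11 alternatives, 336 values of single members moved by less than 0.09 (the median SD between probes) and 68 by more, and no member past 2-fold changed sign. Spike-in scaling moved the medians to 0.46 for glycolysis, 0.31 for HIF subunits and regulators and 0.82 for other targets, and the median of all genes to 0.11. The count of glycolytic genes at least 2-fold higher was 1 with quantile, loess and spike-in scaling, and that of HIF subunits and regulators was 2 with loess and spike-in scaling. The median of the HIF subunits and regulators was 0.42 with no filter on dim probes, -0.047 at a signal of at least 100 and -0.052 with genes of at least 2 probes. With genes of at least 2 probes, 17 members were left, 4 of them at least 2-fold higher, 3 of these among the other targets, whose median was 1.04. Among all genes, 177 were at least 2-fold higher and 215 lower, against 82 and 124 on unsubtracted signals, 68 and 109 under normexp, 885 and 871 without the filter on dim probes, 85 and 128 at a signal of at least 100, 17 and 32 with genes of at least 2 probes, and 262 and 141 with spike-in scaling. Settings with fewer genes (a signal of at least 100, at least 2 probes) drop members by construction. Otherwise the cause was not tested. Signals near background limit Egln1, Adm and Mgarp. They also limit the size of the Egln3 and Vegfa differences, which fell from 2.49 each to 1.80 and 1.96 under normexp. No paired analysis was possible because each genotype had 1 array.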
